A study of Mus musculus with 16 samples.

Results

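The proteasome is encoded in the mouse mostly by genes whose symbols start with Psma, Psmb, Psmc, Psmd, Psme, Psmf or Psmg. Members were the protein-coding genes with such a symbol and a mean of at least 10 normalised reads over the 16 libraries, which gave 48 of the 27288 gene identifiers in the table. All 48 passed the same filter for testing, which 13256 genes passed. By role they were 7 subunits of the alpha ring, 7 of the constitutive beta ring, 5 immune subunits, 6 ATPases and 11 other subunits of the 19S particle, 3 other activators, 1 testis-type alpha subunit, and a group of 8 that holds the assembly factors and the inhibitor Psmf1. The member nearest the limit was Psma8, a testis-type alpha subunit, at a mean of 10.8 normalised reads, and the nearest gene outside it was Psmc3ip, at 4.87. Psmb11, the thymus-type beta subunit, was not analysed here.

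The livers came from C57BL/6 mice aged 8 to 10 weeks, with 4 libraries in each of 4 groups. The groups were L-Dnm1l KO mice given EtOH, WT mice given EtOH, L-Dnm1l KO mice given Control and WT mice given Control. L-Dnm1l KO stands for a deletion, specific to the liver, of Dnm1l, the gene of the mitochondrial fission GTPase DRP1, and the Cre driver is not given in the sources used here. EtOH stands for the Gao-Binge model, an ethanol diet followed by a gavage of ethanol, and its control is called the control diet here. The labels do not say whether the libraries of a group came from separate animals, so p-values measure the spread between these libraries.

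The proteasome degrades proteins tagged with ubiquitin. Its 20S core is a barrel of outer alpha rings and inner beta rings, in which Psmb5, Psmb6 and Psmb7 encode the constitutive catalytic subunits. Interferon gamma induces Psmb8, Psmb9 and Psmb10, which replace them in the immunoproteasome, and Psme1 and Psme2, the subunits of the PA28 activator, and this form is known for making peptides for MHC class I. The 19S particle unfolds the substrate with its Psmc ATPases, while its Psmd subunits recognise and remove ubiquitin.

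The promoters of 5 of the 6 genes of the catalytic pairs are shown because the partners of each pair are compared with each other, and Psmb7 is named only. RefSeq promoter windows on GRCm38.p6 matched 40 of the 48 members, with 43 windows. The stretches are the 250 bases before the RefSeq start, on the strand of the gene, at chr17:34197945-34198194 on the plus strand for Psmb8, chr14:54617996-54618245 on the minus strand for Psmb5, chr17:34187331-34187580 on the minus strand for Psmb9, chr11:70525107-70525356 on the plus strand for Psmb6 and chr8:105938393-105938642 on the minus strand for Psmb10. Capitals mark TGACNNNGC, the core of an antioxidant response element (ARE), in Psmb5 and Psmb6.
Psmb8: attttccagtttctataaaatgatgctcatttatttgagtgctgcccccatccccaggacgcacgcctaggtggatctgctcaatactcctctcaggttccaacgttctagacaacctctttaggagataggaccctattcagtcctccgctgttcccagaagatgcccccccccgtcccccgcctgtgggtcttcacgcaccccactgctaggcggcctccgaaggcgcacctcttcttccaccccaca
Psmb5: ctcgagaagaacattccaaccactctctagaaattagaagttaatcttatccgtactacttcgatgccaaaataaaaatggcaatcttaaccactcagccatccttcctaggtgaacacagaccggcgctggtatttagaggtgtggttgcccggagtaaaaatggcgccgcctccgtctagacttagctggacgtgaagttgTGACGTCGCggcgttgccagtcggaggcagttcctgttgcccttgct
Psmb9: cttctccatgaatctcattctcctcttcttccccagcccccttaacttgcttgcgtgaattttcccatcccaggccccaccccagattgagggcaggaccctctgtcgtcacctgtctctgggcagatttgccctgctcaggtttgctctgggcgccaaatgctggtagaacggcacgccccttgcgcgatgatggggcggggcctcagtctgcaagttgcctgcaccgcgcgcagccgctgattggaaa
Psmb6: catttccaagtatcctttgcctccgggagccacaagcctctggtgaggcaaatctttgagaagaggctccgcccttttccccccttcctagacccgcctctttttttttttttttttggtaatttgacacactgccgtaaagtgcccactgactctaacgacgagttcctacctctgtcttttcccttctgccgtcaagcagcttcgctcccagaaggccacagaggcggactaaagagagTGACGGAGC
Psmb10: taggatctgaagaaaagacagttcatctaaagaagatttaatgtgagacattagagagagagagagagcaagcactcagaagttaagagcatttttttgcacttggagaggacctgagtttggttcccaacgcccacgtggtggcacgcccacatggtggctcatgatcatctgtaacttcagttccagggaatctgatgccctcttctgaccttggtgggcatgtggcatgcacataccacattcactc

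Both strands of each window were searched, and a letter run that fits more than one motif could count for each. The ARE letters were in 5 of the 43 member windows, those of Psmb5, Psmb6, Psmc6, Psmd9 and Psmd12, against 10.2% of all 32851 promoter windows of the same length. The interferon-stimulated response element, searched by the core of its motif, was in 3 member windows, those of Psmb3, Psmd4 and Psmd9, against 2.98% of all windows. The stretches shown for Psmb8 and Psmb9 lie wholly inside the spans of these genes in the GENCODE annotation, and those for Psmb5 and Psmb10 lie partly inside. Read along its strand, the span begins at 34197721 for Psmb8, 34187764 for Psmb9, 54618022 for Psmb5 and 105938444 for Psmb10. The bases before the outer starts of Psmb8 and Psmb9 are not shown, so the stretches do not describe them. A match is a description of the letters in the window.

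Library depth ranged from 11425136 to 13864862 reads. Dnm1l had 642 ± 72.7 normalised reads in KO-labelled livers and 663 ± 56.1 in WT livers on control diet (SD, n = 4 each), with an exact two-sided permutation p of 0.571. After ethanol it had 803 ± 99.3 normalised reads in KO-labelled livers and 743 ± 38.4 in WT livers (SD, n = 4 each), with an exact two-sided permutation p of 0.343, where 4 against 4 libraries allow no p below 0.0286. The gene total does not check a deletion of some exons, so the groups are called by their labels throughout. The hepatocyte markers were high in every library, with Alb between 718685 and 1266040 normalised reads. KO-labelled ethanol library 1 held 2563 normalised reads of the pancreatic gene Ctrb1, against at most 4.81 in any other library, and KO-labelled ethanol library 4 held 1506 of the haemoglobin gene Hba-a1, against at most 418 in any other.

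Members differed widely in level. Per kb of the principal transcript, the mean over the 16 libraries ran from 1755 normalised reads for Psmb4, a non-catalytic beta subunit, down to 6.36 for Psma8. The medians by role were 956 normalised reads per kb for the constitutive beta ring, 875 for the alpha ring, 854 for the 19S ATPases, 655 for the other 19S subunits, 281 for the immune subunits and 143 for the assembly factors and inhibitor. Among the immune subunits, Psme1 was the most abundant at 939 normalised reads per kb, followed by Psmb10 at 345, Psme2 at 281, Psmb8 at 269 and Psmb9 at 222. In the order of levels, the higher gene of a neighbouring pair was higher in all 16 libraries for 3 of 47 pairs, Psmg2 over Psmg4, Psmg4 over Psmf1 and Psma3 over Psma8, so the order of the other neighbours is not settled by these libraries.

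**Figure D1:**
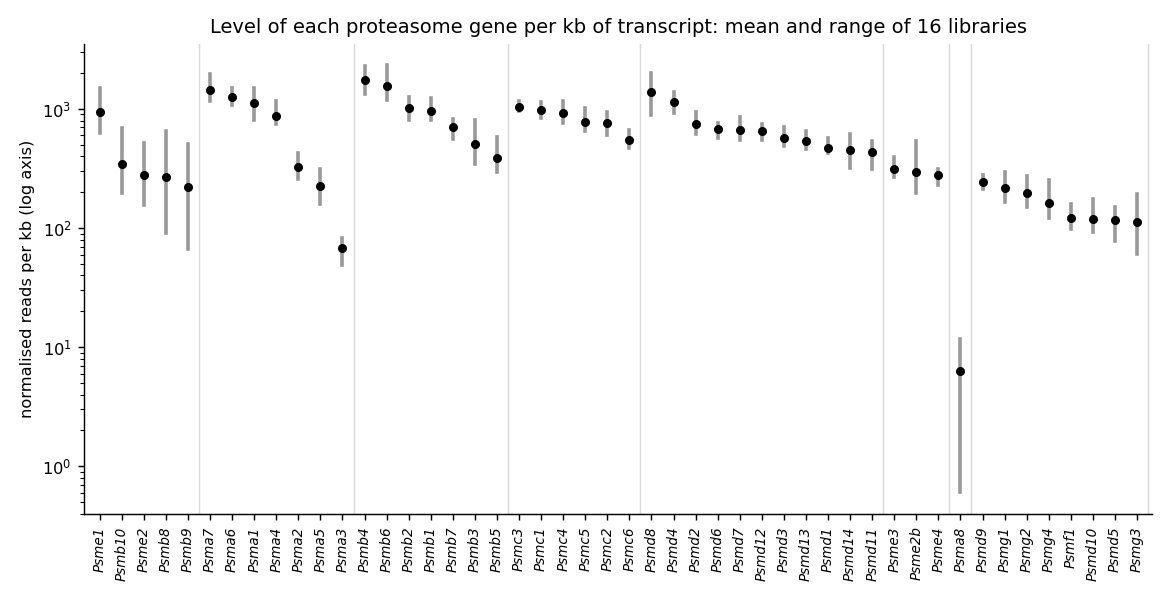
Normalised reads per kb of transcript (log axis) for each of the 48 members, grouped by role and ordered by level within a role; points are means and bars the range over all 16 libraries. Psma8, at 6.36, stands far below the rest, and the immune subunits other than Psme1 lie between 222 and 345.

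Whether the genotype changes proteasome expression was asked first on the control diet. Of the 48 members, 15 were called higher and 0 lower in KO-labelled than in WT livers, where called means a Benjamini-Hochberg adjusted p under 0.05 from limma over all genes tested. Over all genes, 6.4% were called higher and 5.24% lower. Of the immune subunits, 3 of 5 were called higher, with a median log2 fold change of 0.52, against 12 of the 43 other members, with a median of 0.24, and a median of -0.01 over all genes. Psmb8, the immune counterpart of Psmb5, had 1071, 818, 715 and 753 normalised reads in KO-labelled livers and 266, 327, 303 and 289.6 in WT livers. Every KO-labelled library lay far above every WT library. The fold change was 2.8 (95% interval 2.37 to 3.31, limma adjusted p = 2e-07). Psmb9, the counterpart of Psmb6, had 683, 565, 499 and 667 normalised reads in KO-labelled livers and 213, 205, 181 and 211 in WT livers, a fold change of 2.95 (2.38 to 3.66, limma adjusted p = 2.22e-06). Its groups were as clearly apart as those of Psmb8.

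Psmb10 and the PA28 pair differed by less. Psmb10, the counterpart of Psmb7, had 915, 784, 451 and 631 normalised reads in KO-labelled livers and 422, 494, 434 and 526 in WT livers. KO-labelled library 3 lay among the WT libraries and the other 3 above them all. The fold change of 1.44 (1.11 to 1.86) missed the threshold in limma (adjusted p = 0.0621), and it passed without KO-labelled control library 3 (limma adjusted p = 0.006). With all libraries, Psmb10 was called by edgeR (adjusted p = 0.0364) and by DESeq2 (adjusted p = 0.0219). Psme1, PA28 alpha, had 1673, 1475, 1028 and 1254 normalised reads in KO-labelled livers and 918, 872, 1019 and 956 in WT livers, and the lowest KO-labelled library was just above the highest WT library. Its fold change was 1.42 (1.17 to 1.73, limma adjusted p = 0.0208), and the call was lost without KO-labelled library 1 or 2 or WT library 1 or 2 (limma adjusted p between 0.0526 and 0.0595). Psme2, PA28 beta, had 495, 391, 291 and 328 normalised reads in KO-labelled livers and 258, 235, 268 and 275 in WT livers. The groups did not overlap, yet the fold change of 1.42 (1.12 to 1.81) missed the threshold in limma (adjusted p = 0.0537), and it passed without KO-labelled library 3 (limma adjusted p = 0.0259). With all libraries, Psme2 was called by edgeR (adjusted p = 0.0326) and by DESeq2 (adjusted p = 0.0216). KO-labelled library 1 was the highest and library 3 the lowest of its group for Psmb8, Psmb10, Psme1 and Psme2 alike.

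The mouse genome holds a copy of Psme2 without introns, Psme2b, whose transcript was 99.37% identical to that of Psme2 over 794 aligned columns. Of 75-base windows of the principal transcript, the length of a read, 51.7% for Psme2 and 60.2% for Psme2b occur in the other gene, so the split of reads between them is uncertain. Psme2b had 451, 356, 244 and 294 normalised reads in KO-labelled livers and 210.0, 207, 239 and 258 in WT livers, with overlapping groups and a fold change of 1.44 (limma adjusted p = 0.04999, just under the threshold). That call was lost without any 1 library other than KO-labelled library 3, with limma adjusted p between 0.058 and 0.139. With the reads of both genes summed, the log2 fold change was 0.52 (SE 0.16, limma adjusted p = 0.0397).

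The genotype comparison after ethanol gave 4 members called higher and 0 lower, against 6.13% higher and 3.75% lower over all genes. Both diets' comparisons use separate libraries, and 3 members were called in both, Psmb8, Psmb9 and Psmd5, which are 3 of the 15 and 3 of the 4. After ethanol the median log2 fold change was 0.44 over the 5 immune subunits, 0.08 over the 43 other members and -0.02 over all genes. Psmb8 had 448, 428, 464 and 467 normalised reads in KO-labelled livers and 169.5, 158, 148 and 169 in WT livers. Psmb9 had 261, 237, 321 and 328 normalised reads in KO-labelled livers and 136, 89.7, 109 and 92.6 in WT livers. For both genes every KO-labelled library exceeded every WT library by a wide gap, with fold changes of 2.79 (2.36 to 3.3, limma adjusted p = 1.54e-07) for Psmb8 and 2.68 (2.16 to 3.32, limma adjusted p = 5.26e-06) for Psmb9. Psmb8 and Psmb9 were called higher on both diets under every alternative run.

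The other immune subunits were not called for the genotype after ethanol. Psmb10 had 332, 321, 366 and 289 normalised reads in KO-labelled livers and 388, 316, 258 and 302 in WT livers, with overlapping groups and a fold change of 1.04 (0.806 to 1.35, limma adjusted p = 0.883). Psme1 had 1078, 1025, 927 and 986 normalised reads in KO-labelled livers and 968, 917, 696 and 908 in WT livers, a fold change of 1.16 (0.953 to 1.41, limma adjusted p = 0.353). The lowest KO-labelled value of Psme1 lay below the highest WT value. Psme2 had 261, 269, 263 and 226 normalised reads in KO-labelled livers and 249, 206, 159 and 151 in WT livers, a fold change of 1.35 (1.06 to 1.72, limma adjusted p = 0.107), and it was called without WT ethanol library 1 (limma adjusted p = 0.0406).

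**Figure D2:**
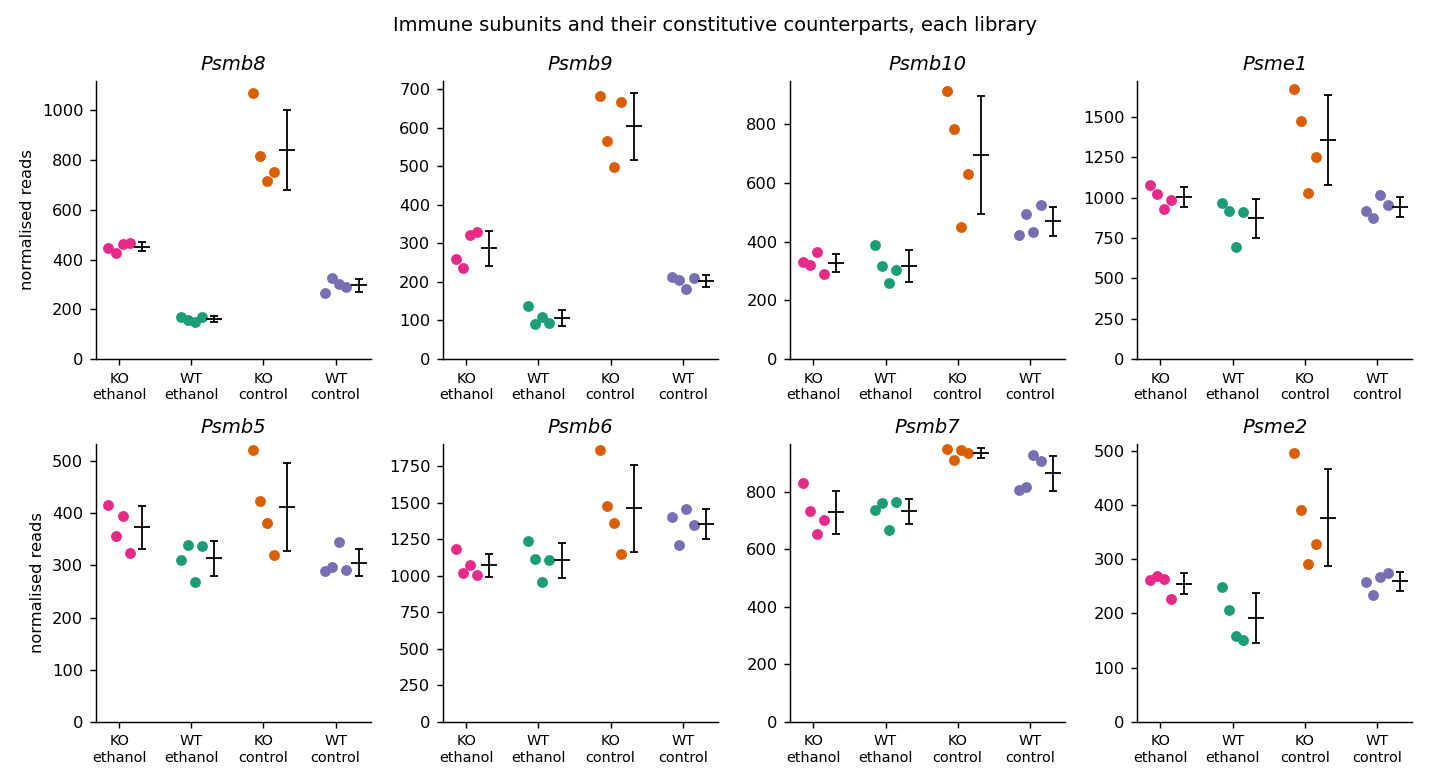
Normalised reads in each library (points) with mean and SD (bars, n = 4) of the 5 immune subunits and of Psmb5, Psmb6 and Psmb7, for KO-labelled and WT livers after ethanol and on control diet. Psmb8 and Psmb9 are higher in every KO-labelled than in every WT library of the same diet and lower after ethanol in both genotypes, while Psmb6 and Psmb7 overlap between the genotypes.

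The constitutive partners were measured in the same libraries. On control diet Psmb5, the constitutive chymotrypsin-like subunit, had 521, 424, 382 and 321 normalised reads in KO-labelled livers and 289, 297, 345 and 291 in WT livers, a fold change of 1.33 (1.09 to 1.62, limma adjusted p = 0.0563). KO-labelled library 4 lay within the WT range, and without it Psmb5 was called (limma adjusted p = 0.0201). With all libraries, Psmb5 was called by edgeR (adjusted p = 0.037) and by DESeq2 (adjusted p = 0.0291). Psmb6 had 1858, 1475, 1362 and 1148 normalised reads in KO-labelled livers and 1399, 1213, 1453 and 1346 in WT livers, and the groups overlapped (fold change 1.07, 0.888 to 1.28, limma adjusted p = 0.7). Psmb7 had 948, 911, 947 and 937 normalised reads in KO-labelled livers and 808, 817, 928 and 906 in WT livers, again with overlap (fold change 1.08, 0.954 to 1.23, limma adjusted p = 0.438). After ethanol the values of Psmb5 were 416, 357, 395 and 324 normalised reads in KO-labelled livers and 309.6, 340.2, 268 and 337 in WT livers. Those of Psmb6 were 1181, 1021, 1072 and 1004 in KO-labelled livers and 1238, 1114, 953 and 1109.9 in WT livers, and those of Psmb7 were 830.1, 733, 653 and 701 in KO-labelled livers and 736, 761, 669 and 764 in WT livers. None of the 3 was called for the genotype after ethanol (fold changes 1.19, 0.971 and 0.993, limma adjusted p = 0.273, 0.88 and 0.966, in that order).

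Set against its constitutive partner within each library, on the scale of reads per kb, the balance of the catalytic pairs can be read without the size factors. The ratio of Psmb8 to Psmb5 was 1.14, 1.06, 1.03 and 1.30 in KO-labelled livers and 0.509, 0.608, 0.485 and 0.550 in WT livers on control diet. After ethanol it was 0.594, 0.663, 0.648 and 0.795 in KO-labelled livers and 0.302, 0.257, 0.304 and 0.276 in WT livers. No WT library reached the lowest KO-labelled library of its diet, and no ethanol library reached the lowest control library of its genotype. The mean ratio was 0.675 ± 0.085 in KO-labelled ethanol livers, 0.285 ± 0.022 in WT ethanol livers, 1.13 ± 0.117 in KO-labelled control livers and 0.538 ± 0.054 in WT control livers (SD, n = 4 each). Psmb9 over Psmb6 averaged 0.159 ± 0.030 in KO-labelled ethanol livers, 0.0573 ± 0.0103 in WT ethanol livers, 0.251 ± 0.062 in KO-labelled control livers and 0.0889 ± 0.0109 in WT control livers (SD, n = 4 each). Its genotypes did not overlap on either diet, and its diets did not overlap within either genotype. Psmb10 over Psmb7 averaged 0.400 ± 0.065 in KO-labelled ethanol livers, 0.381 ± 0.058 in WT ethanol livers, 0.658 ± 0.190 in KO-labelled control livers and 0.481 ± 0.054 in WT control livers (SD, n = 4 each), and its genotypes overlapped on both diets. Of the read-length windows of the principal transcript, 40% for Psmb5 and 24.1% for Psmb7 occur in other annotated genes. The shares are 3.22% for Psmb8, 10.8% for Psmb9 and 0% for Psmb6 and Psmb10. The effect of such windows on the ratios was not tested, so the size of a ratio and its comparison between pairs are uncertain. These ratios are given as a description.

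**Figure D3:**
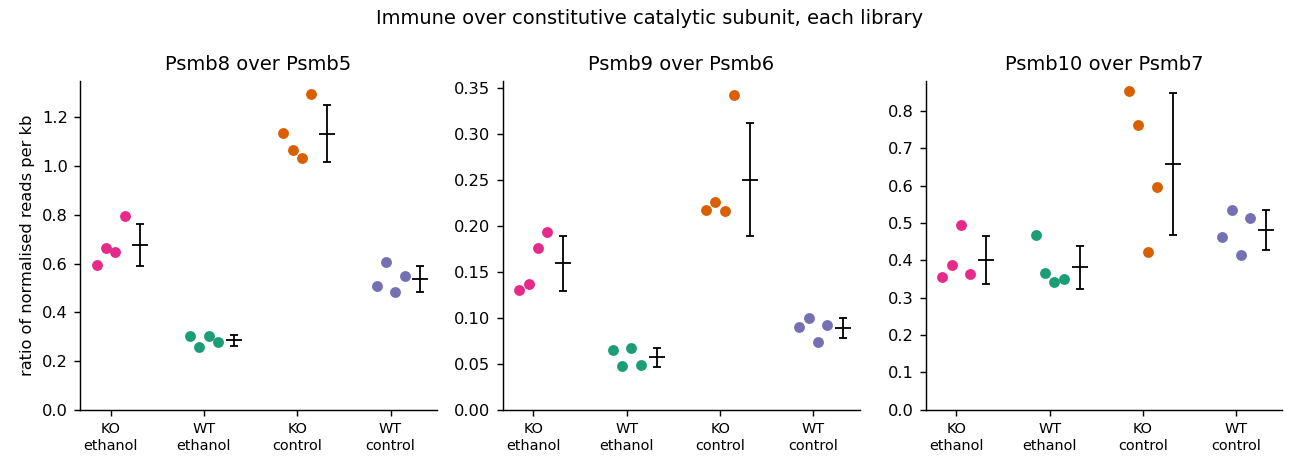
Ratio of normalised reads per kb of each immune catalytic subunit to its constitutive partner in each library (points), with mean and SD (bars, n = 4), for KO-labelled and WT livers after ethanol and on control diet. For Psmb8 over Psmb5 the KO-labelled libraries lie between 0.594 and 0.795 after ethanol and between 1.03 and 1.30 on control diet, above the WT libraries of the same diet. Psmb5 and Psmb7 share part of their sequence with other genes, so the size of a ratio and its comparison between pairs are uncertain.

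Reads of Psmb8 and Psmb9 can be shared with neighbours. The genes lie 9956 bases apart on chromosome 17, and 5.79% of the exon bases of Psmb9 overlap exons of Tap1, a peptide transporter gene read on the opposite strand. Of Psmb8, 14.7% of the exon bases overlap Gm20496. Since the strand setting of the counting is not given in the sources used here, reads in such stretches cannot be told apart. Tap1 itself had 879 ± 103 normalised reads in KO-labelled livers and 366 ± 40.2 in WT livers on control diet, and 587 ± 91.3 in KO-labelled livers and 251 ± 43.6 in WT livers after ethanol (SD, n = 4 each).

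Markers of other liver cells moved with these groups. The 13 markers of Kupffer cells and macrophages summed to 6532 to 8316 normalised reads in KO-labelled ethanol livers, 1209 to 1792 in WT ethanol livers, 7568 to 12010 in KO-labelled control livers and 3224 to 7312 in WT control livers, and none was at 0 in any library. Of them 8 were called higher and 0 lower in KO-labelled than in WT livers on control diet and 13 higher and 0 lower after ethanol. The shares of all genes called were 6.4% higher and 5.24% lower on control diet, and 6.13% higher and 3.75% lower after ethanol. With ethanol against control diet, 0 were called higher and 11 lower in WT livers, and 0 higher and 2 lower in KO-labelled livers. The shares of all genes called with ethanol were 18.9% higher and 19% lower in WT livers, and 10.2% higher and 9.01% lower in KO-labelled livers. The 12 markers of T and NK cells summed to 61.3 to 87.1 normalised reads in KO-labelled ethanol livers, 22.1 to 34.4 in WT ethanol livers, 90.1 to 258 in KO-labelled control livers and 48.8 to 77.5 in WT control livers, with Ncr1 at 0 in 7 libraries. After ethanol the 6 B and plasma cell markers summed to 48 to 138 normalised reads in KO-labelled livers and 30 to 44 in WT livers. On control diet their sums were 69 to 226 in KO-labelled livers and 69 to 86 in WT livers. For the 6 dendritic cell markers the sums after ethanol were 156 to 197 in KO-labelled livers and 115 to 143 in WT livers. On control diet they were 108 to 183 in KO-labelled livers and 101 to 122 in WT livers. Neutrophil markers summed to at most 120.0, with Ly6g at 0 in 13 and Ngp at 0 in 12 libraries. The 7 sinusoidal endothelial markers summed to 2133 to 2712 normalised reads in KO-labelled ethanol livers, 2394 to 2803 in WT ethanol livers, 1383 to 2039 in KO-labelled control livers and 1402 to 1854 in WT control livers. The 7 stellate cell markers summed to 3728 to 4193 normalised reads in KO-labelled ethanol livers, 4024 to 4459 in WT ethanol livers, 2673 to 3750 in KO-labelled control livers and 2828 to 3421 in WT control livers. For the sums of endothelial markers the diets did not overlap in either genotype and for those of stellate markers in WT livers, with ethanol the higher, while the genotypes overlapped on both diets. With ethanol, 4 of 7 endothelial markers were called higher in WT livers, against 18.9% of all genes. In KO-labelled livers 3 were called higher, against 10.2% of all genes, and 2 had fold changes below 1. Of the 7 stellate markers 3 were called higher in WT livers and 2 in KO-labelled livers, against the same shares of all genes. In each genotype 1 stellate marker had a fold change below 1. None of these markers was called lower with ethanol. The 9 hepatocyte markers summed to 1107876 to 1625134 normalised reads in KO-labelled ethanol livers, 1401473 to 1947975 in WT ethanol livers, 1233856 to 1311987 in KO-labelled control livers and 1530140 to 1811789 in WT control livers, so on control diet every KO-labelled library was lower than every WT library. Of the 9, 0 were called higher and 1 lower in KO-labelled livers on either diet, against 5.24% of all genes lower on control diet and 3.75% after ethanol. In bulk livers, fewer cells of a type and less RNA per cell cannot be told apart, and the part of these cells in the values of the immune subunits was not tested.

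Beyond the immune subunits, 12 of 43 members were called higher for the genotype on control diet and 0 lower, against 6.4% and 5.24% of all genes. The 19S particle had 6 of 17 called higher, with a median log2 fold change of 0.28, the assembly factors and inhibitor 3 of 8, with a median of 0.31, and the constitutive 20S core 2 of 14, with a median of 0.21. All 17 fold changes of the 19S particle and all 14 of the core were above 1, against 6458 of 13256 over all genes. Psmc5, a 19S ATPase, had 1274, 1234, 1355 and 1075 normalised reads in KO-labelled livers and 889, 853, 904 and 885 in WT livers. The lowest KO-labelled library stood well above the highest WT library, and the fold change was 1.39 (1.23 to 1.58, limma adjusted p = 0.00145). Psma5, an alpha ring subunit, had 392, 325, 355 and 343 normalised reads in KO-labelled livers and 234, 253, 304 and 255 in WT livers, without overlap (fold change 1.35, 1.15 to 1.59, limma adjusted p = 0.016). Without WT library 1 its limma adjusted p was 0.0566, and 39.8% of its 75-base windows occur in other annotated genes. Psmd10, gankyrin, a chaperone of 19S assembly, had 238, 246, 158 and 253 normalised reads in KO-labelled livers and 155, 141, 172 and 172 in WT livers, a fold change of 1.38 (1.13 to 1.68, limma adjusted p = 0.0382). KO-labelled library 3 fell within the WT range, and the call was lost without any 1 library other than that one (limma adjusted p between 0.0511 and 0.106).

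Smaller rises were called for 8 more of these members. Psma1 in the alpha ring rose 1.33-fold and the ATPase Psmc2 1.31-fold (limma adjusted p = 0.00671 and 0.00594), and with Psmb8, Psmb9 and Psmc5 they were the 5 of 15 calls that held under every alternative run. Psmd5, a 19S assembly chaperone, rose 1.3-fold, Psmf1, the PI31 inhibitor, 1.3-fold, and Psmd14, the deubiquitinase of the 19S lid, 1.3-fold. Psmd4, a ubiquitin receptor, rose 1.28-fold, Psmd7, the partner of Psmd14, 1.25-fold, and the ATPase Psmc4 1.24-fold, with limma adjusted p between 0.0162 and 0.0478 for these last 6. Each of the 6 lost its call when certain single libraries were left out. For Psmc4 and Psmd7 these were KO-labelled control libraries 1, 2 and 3 and WT control libraries 1, 2 and 4, with limma adjusted p between 0.0572 and 0.138. For Psmd4 they were KO-labelled libraries 1, 2 and 3 and WT libraries 2 and 4, and for Psmd14 KO-labelled library 3 and WT libraries 1, 2 and 4 (limma adjusted p between 0.0588 and 0.0923). For Psmd5 they were KO-labelled libraries 2 and 4 and WT libraries 1, 2 and 4, and for Psmf1 library 4 of either genotype (limma adjusted p between 0.0501 and 0.066). The count of 15 members called became 9 without KO-labelled control library 1, 8 without KO-labelled control library 2, and 7 without WT control library 1, 2 or 4. Without KO-labelled control library 3, all 5 immune subunits were called higher.

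After ethanol, 2 of the 43 members outside the immune subunits were called higher for the genotype and 0 lower, a smaller share than the 6.13% of all genes called higher. Psmd5 had 498, 486, 559 and 553 normalised reads in KO-labelled livers and 344, 378, 464 and 458 in WT livers, against 642, 655, 614 and 648 in KO-labelled livers and 469, 453, 548 and 496 in WT livers on control diet. Neither diet showed an overlap, and the fold change after ethanol was 1.28 (1.1 to 1.49, limma adjusted p = 0.0363). Psmd8, a subunit of the 19S lid, had 2838, 2819.7, 2543 and 3098 normalised reads in KO-labelled livers and 2359.9, 2337, 1976 and 2178 in WT livers after ethanol, a fold change of 1.28 (1.1 to 1.49, limma adjusted p = 0.0406), again without overlap. On control diet Psmd8 had 2087, 1748, 2144 and 1794 normalised reads in KO-labelled livers and 1495, 1362, 1758 and 1661 in WT livers, where it was not called and the groups overlapped. The call of Psmd5 after ethanol was lost without KO-labelled library 1, 3 or 4 or WT library 1 or 2 (limma adjusted p between 0.0527 and 0.125), and that of Psmd8 without any 1 library other than KO-labelled library 3 (0.0546 to 0.123). Without KO-labelled ethanol library 1, the library with the pancreatic reads, 2 members were called in place of 4. With KO-labelled ethanol libraries 1 and 4 left out together, 2 members were called, both of them immune subunits. In a fit of all groups with the replicate number as a block, 3 members were called, and Psmd8 was not among them (limma adjusted p = 0.064). With the block in a fit of the ethanol groups alone, 3 members were called, and Psmd5 was not among them (limma adjusted p = 0.053).

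**Figure D4:**
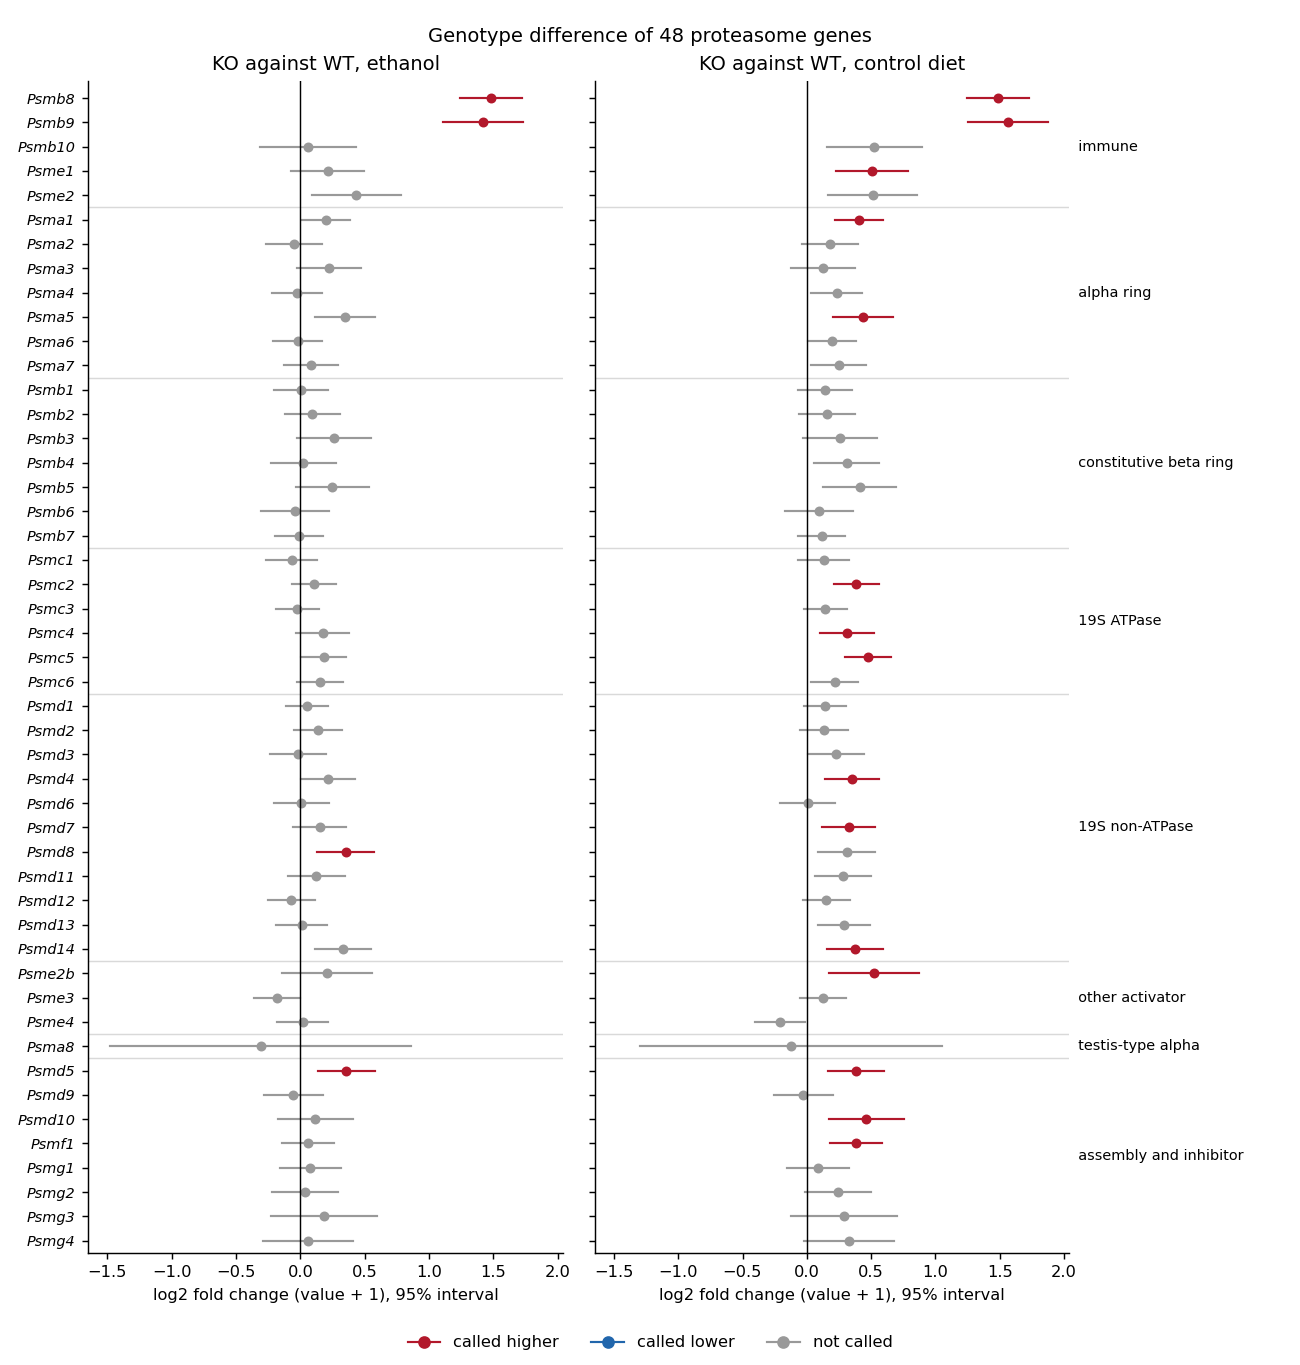
Log2 fold change (value + 1) of KO-labelled over WT livers with its 95% interval for each of the 48 members, after ethanol (left) and on control diet (right), in red where called higher. Psmb8 and Psmb9 stand apart at 1.42 to 1.56 on both diets, and most other members lie between 0 and 0.5 on control diet.

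The ethanol comparison was made within each genotype. In WT livers 13 members were called after ethanol, 4 higher and 9 lower, against 38% of all genes, 18.9% higher and 19% lower, so the members were called no more often than all genes. In KO-labelled livers 20 members were called, 1 higher and 19 lower, against 19.2% of all genes, 10.2% higher and 9.01% lower. The median log2 fold change of the 48 was -0.12 in WT livers and -0.23 in KO-labelled livers, with -0.01 over all genes in both. Of the immune subunits, 4 of 5 fell in WT livers and 5 of 5 in KO-labelled livers.

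Psmb8 had 448, 428, 464 and 467 normalised reads after ethanol and 1071, 818, 715 and 753 on control diet in KO-labelled livers, a fold change of 0.545 (0.461 to 0.644, limma adjusted p = 9.74e-05). In WT livers it had 169.5, 158, 148 and 169 after ethanol and 266, 327, 303 and 289.6 on control diet, a fold change of 0.546 (0.461 to 0.645, limma adjusted p = 2.76e-05). The diets did not overlap in either genotype. Psmb9 fell to 287 ± 44.8 normalised reads after ethanol in KO-labelled livers, against 604 ± 87 on control diet, and to 107 ± 21.4 in WT livers, against 202 ± 14.4 on control diet (SD, n = 4 each). Its fold changes were 0.475 in KO-labelled livers and 0.524 in WT livers (limma adjusted p = 0.000158 and 0.000144), without overlap. Psmb10 fell to 327 ± 31.9 normalised reads after ethanol in KO-labelled livers, against 695 ± 199.8 on control diet, and to 316 ± 54 in WT livers, against 469 ± 49.4 on control diet (SD, n = 4 each). Its fold changes were 0.485 (0.375 to 0.627) in KO-labelled livers and 0.67 (0.518 to 0.866) in WT livers, with limma adjusted p = 0.00076 and 0.0159. In both genotypes each ethanol library was below each control library. Psme2 had a log2 fold change of -0.54 in KO-labelled livers and -0.46 in WT livers (limma adjusted p = 0.0312 and 0.0362), and Psme1 one of -0.41 in KO-labelled livers (limma adjusted p = 0.0388). In WT livers Psme1 was not called, with -0.12 on the log2 scale (95% interval -0.40 to 0.16, limma adjusted p = 0.513).

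The PA28 calls depended on single libraries. In KO-labelled livers those of Psme1 and Psme2 were both lost without control library 1 or 2 or any 1 of the 4 ethanol libraries, with limma adjusted p of 0.0511 to 0.123 for Psme1 and 0.0508 to 0.104 for Psme2, so that 3 immune subunits remained called. In WT livers the call of Psme2 was lost without control library 1, 3 or 4 or ethanol library 3 or 4 (limma adjusted p between 0.0668 and 0.112). Summed with Psme2b, it had a log2 fold change of -0.54 in KO-labelled livers (SE 0.16, limma adjusted p = 0.0228) and of -0.34 in WT livers (SE 0.16, limma adjusted p = 0.0939).

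Among the constitutive 20S genes, 9 of 14 fell in KO-labelled livers, with a median log2 fold change of -0.34, against 9.01% of all genes called lower. In WT livers 3 of 14 fell, with a median of -0.15, a share near the 19% of all genes called lower. Psmb3, a non-catalytic beta subunit, had 378, 339, 387 and 343 normalised reads after ethanol and 619.6, 506, 488 and 369 on control diet in KO-labelled livers, where control library 4 lay within the ethanol range. In WT livers it had 348, 320.4, 266 and 278 after ethanol and 410.2, 357, 442 and 427 on control diet, with no overlap. The fold changes were 0.741 in KO-labelled livers and 0.739 in WT livers (limma adjusted p = 0.034 and 0.0179), and 33.1% of its 75-base windows occur in other annotated genes. Psmb7 fell to a fold change of 0.777 in KO-labelled livers and 0.848 in WT livers (limma adjusted p = 0.00814 and 0.0399). Psmb6 fell in KO-labelled livers (0.742, limma adjusted p = 0.0232), while in WT livers its fold change of 0.814 was not called (limma adjusted p = 0.0709). Psmb5 was called in neither genotype, with fold changes of 0.916 (0.752 to 1.12) in KO-labelled livers and 1.03 (0.842 to 1.25) in WT livers. The other core genes called lower were Psma1, Psma2, Psma4, Psma5, Psma7 and Psmb1 in KO-labelled livers, at fold changes of 0.784 to 0.801, and Psma3 in WT livers, at 0.808. In KO-labelled livers Psma1 and Psmb7 were called with each single library left out, while Psma2, Psma4, Psma5, Psma7, Psmb1, Psmb3 and Psmb6 each lost the call without control library 1 and without ethanol library 4, and some also without control library 2, 3 or 4 or ethanol library 1, 2 or 3 (limma adjusted p between 0.0513 and 0.11). In WT livers the call of Psma3 was lost without control library 1, 3 or 4 or ethanol library 1, 2 or 4 (limma adjusted p between 0.0712 and 0.145), that of Psmb7 without control library 3 or 4 or ethanol library 1, 2 or 3 (0.0535 to 0.11), and that of Psmb3 without control library 3 (0.0509).

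The 19S particle had no gene called lower, against 9.01% of all genes in KO-labelled livers and 19% in WT livers. In KO-labelled livers 14 of its 17 fold changes were below 1, with a median log2 fold change of -0.13. In WT livers 5 of the 17 were below 1, with a median of 0.06. Of its 17 genes, 1 was called higher and 0 lower in KO-labelled livers, a smaller share than the 10.2% of all genes called higher, and 3 were called higher and 0 lower in WT livers, near the 18.9% of all genes. Psmd8 had 2838, 2819.7, 2543 and 3098 normalised reads after ethanol and 2087, 1748, 2144 and 1794 on control diet in KO-labelled livers, a fold change of 1.46 (1.25 to 1.69, limma adjusted p = 0.00206). In WT livers it had 2359.9, 2337, 1976 and 2178 after ethanol and 1495, 1362, 1758 and 1661 on control diet, a fold change of 1.41 (1.21 to 1.65, limma adjusted p = 0.00135). The lowest ethanol library of each genotype was above all its control libraries, and both calls held under every alternative run. In WT livers the 19S subunits Psmd11 and Psmd12 rose 1.24-fold and 1.18-fold (limma adjusted p = 0.0267 and 0.0438), and Psme3, PA28 gamma, a nuclear activator, rose 1.28-fold (limma adjusted p = 0.00329). The call of Psmd11 was lost without WT control library 2 or 4 or WT ethanol library 2 or 3 (limma adjusted p between 0.0567 and 0.0966), and that of Psmd12 without any 1 library other than WT control library 3 or WT ethanol library 4 (0.0578 to 0.119).

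Of the 8 assembly factors and inhibitor, 4 fell in KO-labelled livers, against 9.01% of all genes called lower, and 2 fell in WT livers, a share near the 19% of all genes. Psmg1, a chaperone of alpha ring assembly, had 176, 200.2, 200.3 and 200.2 normalised reads after ethanol and 307, 296, 237 and 234 on control diet in KO-labelled livers, a fold change of 0.729 (0.618 to 0.86, limma adjusted p = 0.00986). In WT livers it had 190.4, 191, 173 and 181 after ethanol and 219, 243, 272 and 274 on control diet, a fold change of 0.733 (0.621 to 0.864, limma adjusted p = 0.00506). No ethanol library of either genotype reached its control libraries. In KO-labelled livers the call of Psmg1 was lost without ethanol libraries 1 and 4 (limma adjusted p = 0.0979). It was also lost there with ethanol libraries 3 and 4 only (0.0956), and in WT livers with ethanol libraries 1 and 2 only (0.056). Psmg3, another such chaperone, had 100.3, 53.1, 105 and 86.6 normalised reads after ethanol and 169.9, 140.1, 110.5 and 109 on control diet in KO-labelled livers, a fold change of 0.645 (0.484 to 0.858, limma adjusted p = 0.0316). In WT livers it had 76.2, 81.6, 64.1 and 73.3 after ethanol and 113, 93.4, 117 and 103 on control diet, a fold change of 0.695 (0.522 to 0.925, limma adjusted p = 0.0431). The diets did not overlap in either genotype, though KO-labelled ethanol library 2 was far below the rest of its group. Psmg3 lost its call in KO-labelled livers without control library 1 or 2 or ethanol library 2 or 4 (limma adjusted p between 0.0577 and 0.104), and in WT livers without any 1 library other than WT control library 2 (0.0513 to 0.0991). Psmg2, the partner of Psmg1, fell in KO-labelled livers (fold change 0.738, limma adjusted p = 0.018, lost without control library 1 or ethanol library 1 or 2 at 0.0554 to 0.0651), and had a fold change of 0.849 in WT livers (limma adjusted p = 0.136). Psmd10 had 138, 153, 172 and 145 normalised reads after ethanol and 238, 246, 158 and 253 on control diet in KO-labelled livers, with control library 3 within the ethanol range (fold change 0.689, limma adjusted p = 0.0121). Its call was lost without KO-labelled ethanol libraries 1 and 4 (limma adjusted p = 0.144) and with ethanol libraries 3 and 4 only (0.122). Psme2b, outside this group, had 232, 236, 223 and 209.8 normalised reads after ethanol and 451, 356, 244 and 294 on control diet in KO-labelled livers, a fold change of 0.688 (limma adjusted p = 0.0306) without overlap. That call was lost without control library 1 or 2 or any 1 ethanol library (limma adjusted p between 0.0532 and 0.102).

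The number of calls for ethanol moved with single libraries. In KO-labelled livers the 20 called members became 8 without control library 1, 11 without control library 2, 13 without ethanol library 1, 10 without ethanol library 2 and 9 without ethanol library 4. With ethanol libraries 1 and 4 both left out, 5 were called. In WT livers the 13 called members became 8 without control library 3, 7 without control library 4 and 8 without ethanol library 2. The calls that held under every alternative run were those of Psmb8, Psmb9, Psmb10 and Psmd8 in KO-labelled livers and of Psmb8, Psmb9, Psmd8 and Psme3 in WT livers.

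**Figure D5:**
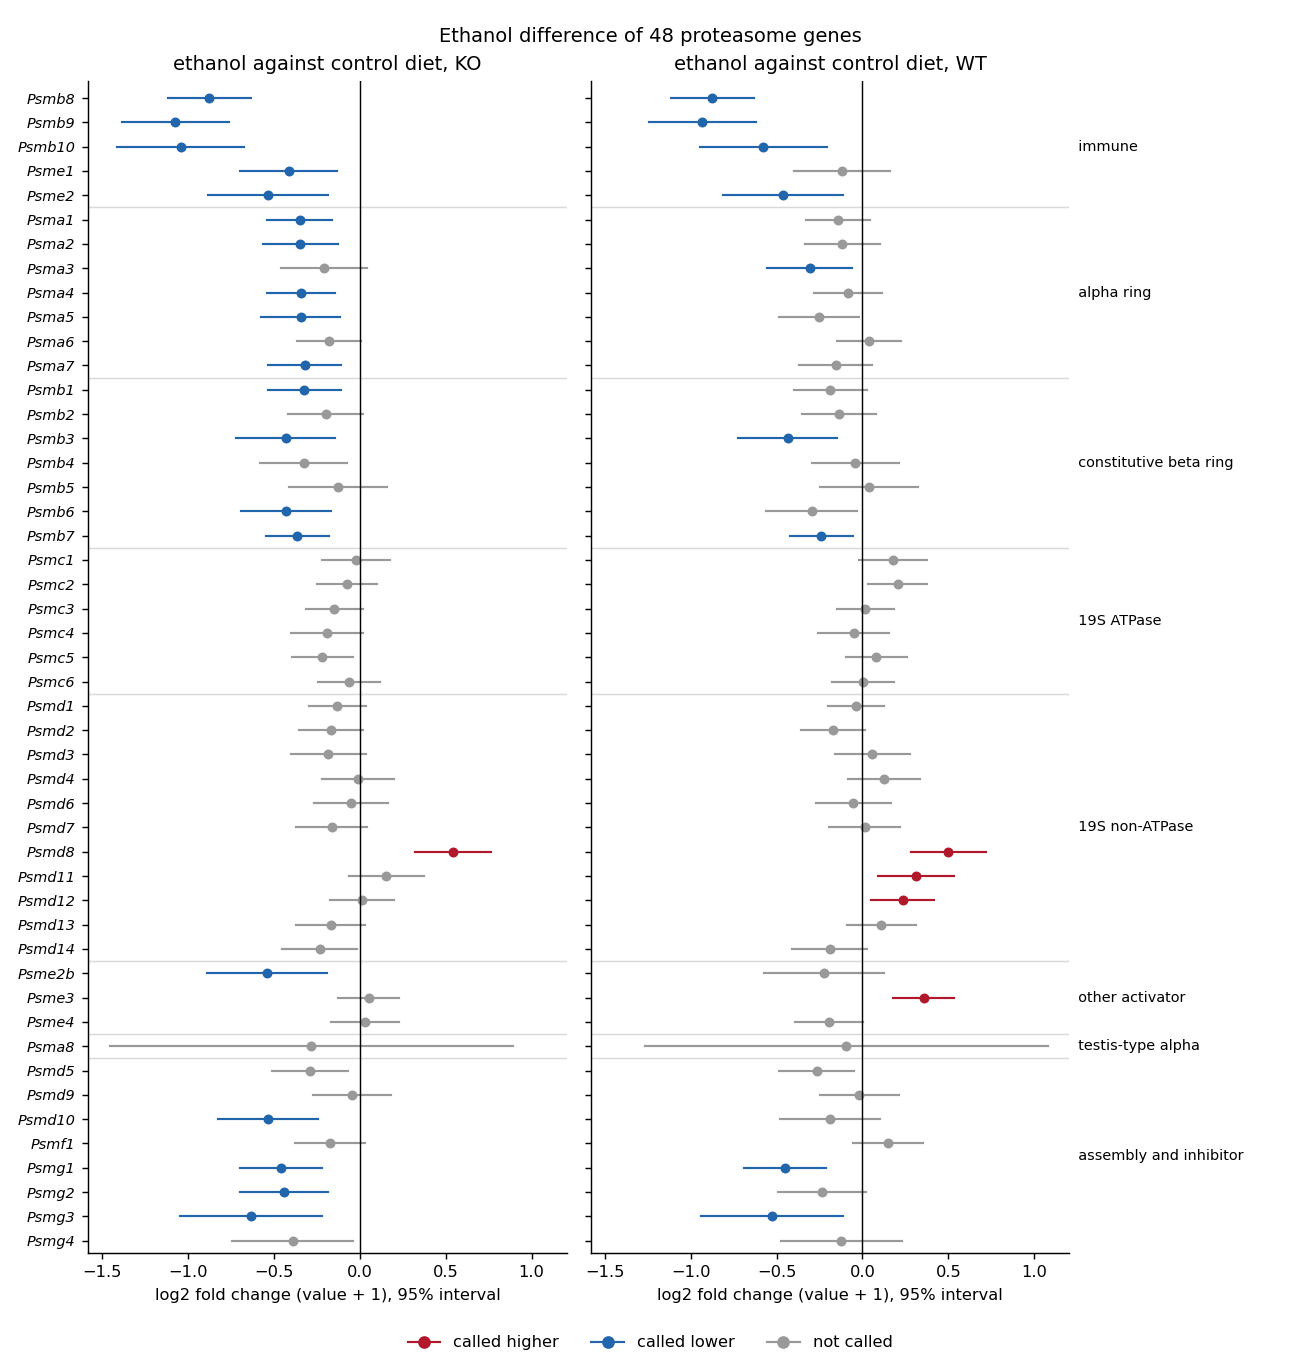
Log2 fold change (value + 1) of ethanol over control diet with its 95% interval for each of the 48 members, in KO-labelled (left) and WT livers (right), in red where called higher and blue where called lower. The immune subunits reach -1.07 in KO-labelled livers, 9 of the 14 constitutive core genes are blue there, and Psmd8 is red in both genotypes.

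Whether ethanol acted differently in the genotypes was tested as the difference of the effects, KO-labelled minus WT. No member was called, against 0.347% of all genes, and edgeR and DESeq2 on whole reads also called 0. At an unadjusted p under 0.05 there were 4 members by limma, 5 by edgeR and 5 by DESeq2. The smallest was that of Psme3, with an unadjusted limma p of 0.0199 and an adjusted p of 0.280 in the fit across all genes. The difference was -0.00 for Psmb8 (95% interval -0.34 to 0.34), -0.14 for Psmb9 (-0.58 to 0.30) and -0.47 for Psmb10 (-0.99 to 0.06), all on the log2 scale. So the fall of the 20S core genes called in KO-labelled livers is not shown to differ from that in WT livers.

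Other genes of the pathway were described from lists. Over all genes, 6.4% were called higher and 5.24% lower for the genotype on control diet, and 6.13% higher and 3.75% lower after ethanol. With ethanol, 10.2% were called higher and 9.01% lower in KO-labelled livers, and 18.9% higher and 19% lower in WT livers. The lists are short, so 1 call more or less moves their share far. Of 6 tested regulators of proteasome expression, 1 was called higher and 0 lower for the genotype on control diet, and 0 higher and 0 lower after ethanol. Nlrc5, the transactivator of MHC class I, was 1.55-fold higher in KO-labelled livers on control diet (limma adjusted p = 0.0458). With ethanol, 1 regulator rose and 1 fell in KO-labelled livers, and 2 rose and 1 fell in WT livers. Nfe2l1, the factor that raises proteasome genes when proteasome capacity is short, rose 1.51-fold in KO-labelled livers and 1.36-fold in WT livers (limma adjusted p = 0.000625 and 0.00201), and Ddi2, the protease that activates it, rose 1.33-fold in WT livers. Irf1, an interferon-induced factor, fell to fold changes of 0.649 in KO-labelled livers and 0.615 in WT livers (limma adjusted p = 0.0376 and 0.0108).

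Of 7 class I peptide loading genes, 6 were called higher and 0 lower for the genotype on both diets. Over all genes, 6.4% were called higher on control diet and 6.13% after ethanol. H2-D1, a class I heavy chain, was 2.15-fold higher after ethanol and 2.71-fold higher on control diet, and Tap1 2.34-fold and 2.4-fold. With ethanol 0 rose and 2 fell in KO-labelled livers, and 0 rose and 1 fell in WT livers; Tap1 fell in both, to 0.665 and 0.682. Of 16 proteasome subunits, assembly factors and bound proteins without such a symbol, 2 were higher and 0 lower for the genotype on control diet. After ethanol 1 was higher and 0 lower, a share near that of all genes. Zfand2a, an arsenite-inducible proteasome-binding protein, had 306 ± 26 normalised reads in KO-labelled livers and 143 ± 13.5 in WT livers after ethanol (SD, n = 4 each), 2.14-fold (limma adjusted p = 1.83e-05), and was 1.6-fold higher on control diet. Ubqln2, a shuttle for ubiquitinated proteins, was 1.58-fold higher on control diet (limma adjusted p = 0.00215). With ethanol, 2 of the 16 rose and 1 fell in KO-labelled livers, against 10.2% and 9.01% of all genes. In WT livers 4 rose and 1 fell, against 18.9% and 19% of all genes. Pomp, the chaperone of beta ring assembly, fell to 0.759 in KO-labelled livers (limma adjusted p = 0.0187). Of 9 ubiquitin and p97 genes, 1 was called higher and 0 lower for the genotype on control diet, and 0 higher and 1 lower after ethanol. With ethanol 1 rose and 1 fell in KO-labelled livers, and 3 rose and 0 fell in WT livers. The shares over all genes are those given above. Ubb, a polyubiquitin gene, rose 1.37-fold in KO-labelled livers and 1.39-fold in WT livers, and Vcp, the p97 segregase, fell to 0.711 in KO-labelled livers (limma adjusted p = 0.0306, 0.0125 and 0.00201).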

How the data were processed

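RNA from mouse livers was sequenced as single reads of 75 bases, per the labels' protocols, in 16 libraries, 4 in each of 4 groups. Per the submitters' processing notes, the tools were HISAT2 (2.1.0.13), HTSeq and edgeR and the build was GRCm38, while nothing used here gives the annotation release or the strand setting. The authors deposited a signal per gene and library, which is a read count divided by 1 size factor per library (0.814 to 1.263). Whole reads were recovered from these deposited signal values, of which 100% were whole within 0.01 of a read. For WT control library 2 the size of 1 read lies so near 1 that the automatic check of units did not accept the recovery, and its reads were still used in the count-based alternatives. Symbols and positions came from GENCODE M21 on GRCm38, which matched 27242 of 27288 identifiers and left 46 unmatched.

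Values were tested as log2(value + 1) with limma 3.58.1 in R 4.3.3, for the 13256 genes with a mean of at least 10, by 1 model with a mean for each of the 4 groups, a trend of the variance on the level and 5 contrasts, and p-values were adjusted over all genes tested by Benjamini-Hochberg. A fold change on the scale of value + 1 understates the change of low genes. The functions were tested on simulated data. The members and lists were chosen with earlier results of these data known. Values in every library are given for the 5 immune subunits, for Psmb5, Psmb6 and Psmb7, and per contrast for up to 4 other called members with the largest absolute fold change, and up to 8 other called members per contrast may be named with a fold change. Psma1 and Psmc2 are named among these. Other settings tried were a pseudocount of 0.25 or 4, tests without the filter or with a mean of at least 50, no trend, a fit of only the groups compared, a replicate block, each library left out, KO-labelled ethanol libraries 1 and 4 left out, ethanol libraries 1 and 2 or 3 and 4 only, TMM factors, and edgeR 4.0.16 (quasi-likelihood) and DESeq2 1.42.0 on the recovered counts. A block in the ethanol groups alone, and Psme2 and Psme2b summed, were chosen after seeing the data. For the 5 contrasts (genotype on control diet, genotype after ethanol, ethanol in WT, ethanol in KO-labelled livers and their difference) edgeR called 1525, 1281, 5013, 2679 and 30 genes and DESeq2 1924, 1704, 5150, 3028 and 265. To see whether libraries with the same number pair, their deviations from their group's mean were correlated across genes. KO-labelled and WT ethanol libraries of the same number correlated at 0.102 to 0.246, all above the limit of 0.1, so their numbers were taken to pair them, on these data alone, and those of the other comparisons were not. Ethanol libraries of unlike number also correlated positively where both came from numbers 1 and 2, or both from 3 and 4 (0.0975 to 0.1985). All other unlike pairs correlated negatively (-0.2504 to -0.0762), so the numbers may mark these larger sets instead of single pairs. The main values for the genotype after ethanol come from the fit without a block. No fit with the larger sets as a block was run. The chi-square between replicates averaged 9.96 to 108 per gene, which is more than counting error alone gives. Of the genes on the lists, Paaf1 and Tf were not analysed here, and 1 regulator is not reported here and was left out of its list's counts.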

Additional observations from a re-analysis of the deposited data

Results flagged for a closer look

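In 6 of 192 groups of 4 libraries, 1 library lay far from the other 3, by a gap to its nearest neighbour that took most of the range of the group (Dixon's test at the 95% level). Chance flags about 1 in 20 such groups. Psma8 had 1.02 normalised reads in KO-labelled ethanol library 2, against 12.7 to 14.4 in the other 3. Psmb5 had 345 in WT control library 3, against 289 to 297 in the other 3. Psmc3, a 19S ATPase, had 1673 in KO-labelled control library 4, against 1865 to 1898 in the other 3. Psmd10 had 158 in KO-labelled control library 3, against 238 to 253 in the other 3. Psmd3, a 19S lid subunit, had 1058 in WT ethanol library 4, against 1229 to 1260 in the other 3. Psmg1 had 176 in KO-labelled ethanol library 1, against 200.2 to 200.3 in the other 3.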

How the results depend on the processing

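No called result reversed its direction under any alternative run, while 9 results that were not called changed sign in 27 alternatives, none of them called there. On the log2 scale, with each library left out in turn, the genotype effect was -0.031 to 0.20 for Psmb6 on control diet, and after ethanol -0.033 to 0.16 for Psmb10, -0.11 to 0.015 for Psmb6 and -0.074 to 0.041 for Psmb7. The ethanol effect on Psmb5 in WT livers was -0.0038 to 0.11, and the difference of the ethanol effects -0.072 to 0.12 for Psmb8 and -0.19 to 0.067 for Psme2. With ethanol libraries 1 and 2 only, the genotype effect after ethanol was -0.10 for Psmb10 and 0.059 for Psmb7 (0.021 by edgeR on all libraries), and the ethanol effect on Psme1 in WT livers 0.0040. With ethanol libraries 3 and 4 only, the genotype effect on Psmb6 was 0.012, the ethanol effect on Psmb5 in WT livers -0.017, and the difference of the ethanol effects 0.070 for Psmb8 (0.00050 with all libraries and a pseudocount of 0.25), 0.12 for Psmb9 and 0.14 for Psme2. With each library left out in turn, the members called numbered 7 to 14 for the genotype on control diet (15 with all libraries), 2 to 4 for the genotype after ethanol (4), 7 to 12 for ethanol in WT livers (13), 8 to 21 for ethanol in KO-labelled livers (20) and 0 to 0 for the difference of the ethanol effects (0). The immune subunits called numbered 2 to 5 (3), 2 to 3 (2), 3 to 4 (4), 3 to 5 (5) and 0 to 0 (0) in the same order. For the genotype on control diet, 9 members were called with only the groups compared, 17 with TMM factors, 19 by edgeR and 20 by DESeq2. Of the immune subunits, 5 were called by edgeR and 5 by DESeq2. For the genotype after ethanol, 2 members were called with no filter, with no trend, with only the groups compared, without KO-labelled ethanol libraries 1 and 4, and with ethanol libraries 3 and 4 only. By edgeR 6 were called there, and by DESeq2 6. For ethanol in WT livers, 7 members were called with no filter, and 6 members and 2 immune subunits with ethanol libraries 1 and 2 only. For ethanol in KO-labelled livers, 13 members were called with no filter, 5 without KO-labelled ethanol libraries 1 and 4, 10 with ethanol libraries 1 and 2 only and 8 with 3 and 4 only, and 3 immune subunits under each of the last 3. The cause of these changes was not tested; no filter adds genes to the adjustment, and fewer libraries give less precision. With the replicate number as a block, 13, 3, 13, 20 and 0 members were called for the 5 contrasts; the block in the ethanol groups alone gave 3. Over all genes, 496 were called for the genotype after ethanol without KO-labelled ethanol libraries 1 and 4 and 434 with ethanol libraries 3 and 4 only (1310), 3164 with 3 and 4 only for ethanol in WT livers (5032), and 1003 and 1370 under these settings for ethanol in KO-labelled livers (2543). Called genes for the genotype-by-ethanol difference numbered 46, against 16 with no trend, 24 with the block, 0 without KO-labelled ethanol libraries 1 and 4, 264 with ethanol libraries 1 and 2 only, 0 with 3 and 4 only, 30 by edgeR and 265 by DESeq2.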

Other observations

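The members together took 0.375% ± 0.0335 of all reads in KO-labelled ethanol livers, 0.296% ± 0.0179 in WT ethanol livers, 0.429% ± 0.0207 in KO-labelled control livers and 0.318% ± 0.00830 in WT control livers (SD, n = 4 each). These are shares of whole reads, without the size factors, and in them the genotypes did not overlap on either diet. After ethanol they were 0.339% to 0.416% in KO-labelled livers and 0.273% to 0.312% in WT livers. In normalised reads the members summed to 44490.5 ± 1097, 41527 ± 2595, 50509 ± 3340 and 42228 ± 2436 in the same order (SD, n = 4 each). On that scale the genotypes overlapped after ethanol and not on control diet. The 5 immune subunits summed to 2324 ± 45.1 normalised reads in KO-labelled ethanol livers, 1648 ± 223 in WT ethanol livers, 3872 ± 775 in KO-labelled control livers and 2168 ± 79.3 in WT control livers (SD, n = 4 each). The pseudogene Psmb6-ps2, which is no member, had 32.7 to 54.1 normalised reads in KO-labelled ethanol livers, 38.1 to 60.2 in WT ethanol livers, 45.9 to 79.8 in KO-labelled control livers and 39.4 to 52.3 in WT control livers. Of the 48 members, 30 share no 75-base window of their principal transcript with another annotated gene and 8 share at least 20% of them, of which Psmb5, at 40%, and Psma5, at 39.8%, share the most after Psme2b and Psme2.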
